A study of Mus musculus with 28 samples.

Results

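The transcriptional response of splenic Treg cells to αPD1 + αGITR was examined in 15 bulk RNA-seq libraries, 8 from treated mice and 7 from mice given IgG2a, out of the 27 libraries of the series that carry a named column. All mice bore CT2A, a murine glioblastoma (GBM) line implanted in the forebrain, and treatment began once tumors measured 2 mm3. They received 4 doses of 250 µg, one every 3 days, of the isotype control IgG2a or of αPD1 + αGITR, and spleens were taken 2 days after the last dose, each described in the series as coming from a different mouse, although the article gives fewer animals than there are splenic libraries, a difference not resolved here. TCR+CD4+ cells with high CD25 and low CD127 were sorted as Treg cells with CD8 cells gated out, and their RNA was amplified by the Smart-Seq2 protocol. Mouse age, and what the numbers in the sample labels stand for, are not given in the sources used here; 4 of the 7 IgG2a libraries share the number 79, and the 8 treated libraries carry 5 numbers. If libraries of one number are not independent, p-values measure in part a technical spread, and with such libraries averaged 112 genes were higher and 79 lower by the DEG rule given below, 106 of them among the 168 found without averaging, with a lowest limma adjusted p of 0.998. Levels are in TPM, which scales the reads of a transcript by its length and by the total of the library. Testing was limited to features averaging over 10 TPM in either splenic group, which kept 6634 of 53801.

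Treg cells restrain other T cells and are specified by the transcription factor FoxP3. PD1, encoded by *Pdcd1*, is an inhibitory receptor that appears after T cell receptor stimulation, and αPD1 blocks it. GITR, encoded by *Tnfrsf18*, is a co-stimulatory receptor of the TNF receptor family that Treg cells carry at high levels, and αGITR is an agonistic antibody to it.

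Transcripts of *Foxp3*, *Cd4* and *Cd3e* were present in all 15 libraries, while other Treg genes were low in some. *Il2ra*, the gene of the sort marker CD25, ran from 9.02 to 193 TPM, *Ikzf2* from 3.53 to 87.9 TPM and *Ctla4* from 1.96 to 116 TPM. *Tnfrsf18* was at 0 in 1 treated library. *Foxp3* was listed at 21.5 to 364 TPM, *Cd4* at 31.4 to 148 TPM and *Cd3e*, a chain of the T cell receptor complex, at 16.4 to 656 TPM. *Cd8a* reached at most 5.06 TPM, although *Cd8b1* was at 25.2 TPM in treated replicate 74_a. *Il7r*, which encodes CD127, had medians of 5.43 TPM after IgG2a and 7.90 TPM after αPD1 + αGITR, with 79.97 TPM in IgG2a replicate 79_b. Libraries differed widely in composition. Features annotated as protein coding took 34.5% to 62.4% of the TPM of a library, and 10175 to 17460 genes exceeded 1 TPM. The summed level of 15 housekeeping genes ran from 1184 to 26790 TPM. The ribosomal RNA feature *CT010467.1* took 15.5% to 51.7% (medians 43.5% after IgG2a and 32.9% after αPD1 + αGITR). *Gm26870* and *Gm10800* together took 1.22% to 54.5%. In IgG2a replicate 79_a they took 54.5% and lincRNA features 35.6%, so the protein-coding share may hold part of them. The effect of these shares on the fold changes was not tested. Spearman correlations over the genes tested had a median of 0.487 among the 21 pairs of IgG2a libraries, 0.413 among the 28 treated pairs and 0.477 among the 56 pairs across groups, so pairs within a group and pairs across groups were about equally alike.

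Differentially expressed genes (DEGs) were those that combined a fold above 2 with an unadjusted limma p under 0.05. After αPD1 + αGITR 99 genes were higher, which is 1.49% of those tested, and 69 were lower, which is 1.04%. Together they were 168 genes (2.53% of 6634), less than the 5% that an unadjusted p of that size allows, and each gene under that p also exceeded 2-fold. After adjustment over all genes limma called 0 genes, a share of 0%, at a threshold of 0.05. The lowest limma adjusted p was 0.449, shared by *Lag3* and *Ndufaf8*. The values below therefore describe these libraries, and genes picked out for their small p carry no independent support from it. Of the 168 DEGs 107 (73 higher and 34 lower) exceeded 10 TPM on average only in the group where they were higher, as did 1958 of all 6634 genes, so that these entered the test through that group and their p-values are descriptions. The DEGs higher after treatment had log2 fold changes from 1.29 to 4.13 (median 1.93), and those lower had changes from -3.86 to -1.45 (median -1.97). Of the genes tested 58.1% had a log2 fold change above 0, with a median of 0.15.

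**Figure D1:**
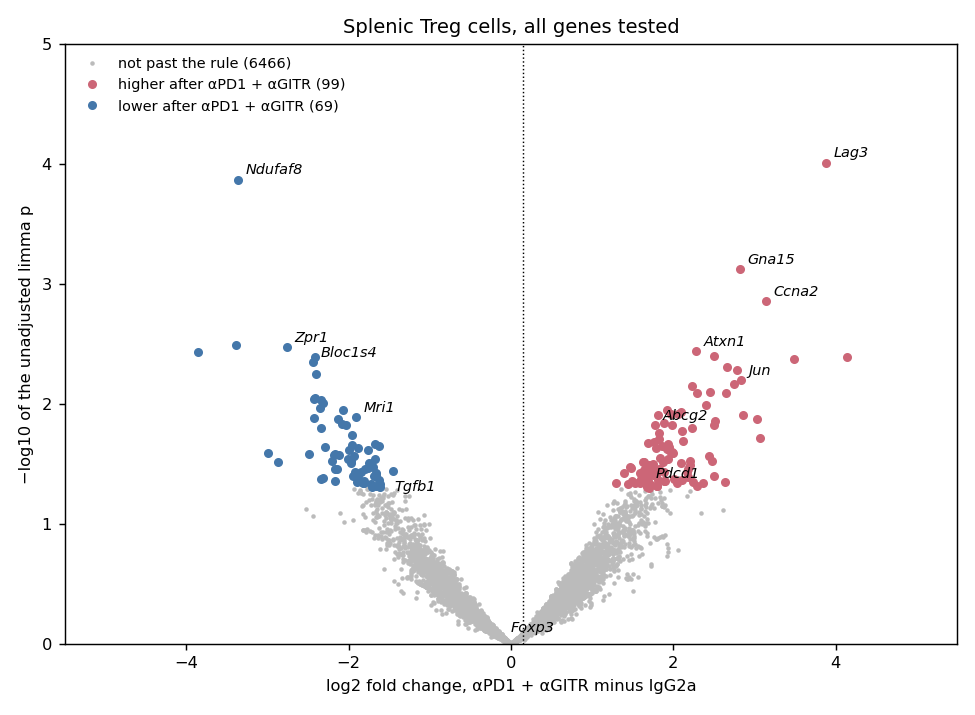
Log2 fold change (αPD1 + αGITR minus IgG2a, on the log2(TPM + 1) scale) against −log10 of the unadjusted limma p for the 6634 genes tested in splenic Treg cells, with DEGs in color and the median fold change of 0.15 as a dotted line. *Lag3* and *Ndufaf8* stand highest, on opposite sides.

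Among the receptors, *Lag3* and *Pdcd1* were higher after αPD1 + αGITR and GITR itself was not among the DEGs. *Lag3* encodes an inhibitory receptor that binds MHC class II, and it lies on chromosome 6 from 124904361 to 124911705 in GRCm38. It ranged from 0 to 39.2 TPM after IgG2a, with a median of 0.27 TPM, and from 7.98 to 179 TPM after αPD1 + αGITR, with a median of 47.9 TPM. IgG2a libraries spleen_369_a (39.2 TPM) and 79_b (20.9 TPM) fell inside the treated range, and the other 5 IgG2a libraries, at 1.03 TPM or less, lay below every treated library. The log2 fold change was 3.89 (standard error 0.86, limma adjusted p = 0.449), and the two-sided exact permutation test over all 6435 assignments gave p = 0.00326. With a mean of 8.81 TPM after IgG2a and 64.1 TPM after treatment it was tested only through its treated level, so these p-values describe the libraries and support nothing further. *Cd4*, the neighbor of *Lag3* on chromosome 6, was listed at 75.5 TPM on average after IgG2a and 92.3 TPM after αPD1 + αGITR, with a log2 fold change of 0.31 (95% interval -0.83 to 1.45). *Lag3* kept a positive log2 fold change in each of the 29 alternatives in which it was tested, from 1.96 with a pseudocount of 10 to 5.33 with 0.1, with limma adjusted p from 0.0535 to 1.00. The 2 filters that required both groups above 10 TPM or a CV below 1 left it out.

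*Pdcd1*, the gene of the receptor that αPD1 binds, lies on chromosome 1 from 94038305 to 94052553. It ranged from 0 to 31.1 TPM after IgG2a (median 7.95) and from 0.62 to 59.2 TPM after treatment (median 34.9), and the groups overlapped. Treated replicate 72_b, at 0.62 TPM, stood below the next treated library at 13.7 TPM. The log2 fold change was 1.70 (standard error 0.81, limma adjusted p = 1.00, exact permutation p = 0.0729), and *Pdcd1* met the DEG rule in 15 of the 30 alternatives that tested it. *Tigit*, an inhibitory receptor, had medians of 4.66 and 15.6 TPM after IgG2a and αPD1 + αGITR, and *Tnfrsf9*, the co-stimulatory receptor 4-1BB, had medians of 10.7 and 19.5 TPM. Their log2 fold changes of 1.36 (95% interval -0.54 to 3.26) and 0.98 (-0.69 to 2.65) did not pass the rule. *Tnfrsf18* ranged from 5.92 to 158 TPM after IgG2a and from 0 to 278 TPM after treatment, both extremes of the whole set being treated libraries, and its log2 fold change of 0.19 (95% interval -1.70 to 2.08) turned negative under 5 of the alternative settings that kept all libraries. The gene *Gm16008* overlaps it on the other strand, and the kit does not mark strand, so their reads cannot be told apart. *Icos*, a CD28-family co-stimulatory receptor, had a log2 fold change of 0.29 (95% interval -1.46 to 2.03). Of 18 checkpoint and co-stimulatory receptors 12 were tested, 2 were DEGs, both higher (*Lag3* and *Pdcd1*), where 1.49% of all genes tested were higher DEGs, and the median log2 fold change was 0.34 against 0.15 over all genes. With 1 library left out that median ran from 0.091 (without IgG2a replicate 79_d) to 0.68 (without 79_b), and it was 0.033 without the 4 libraries that have over 30% of their TPM in lincRNA features.

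**Figure D2:**
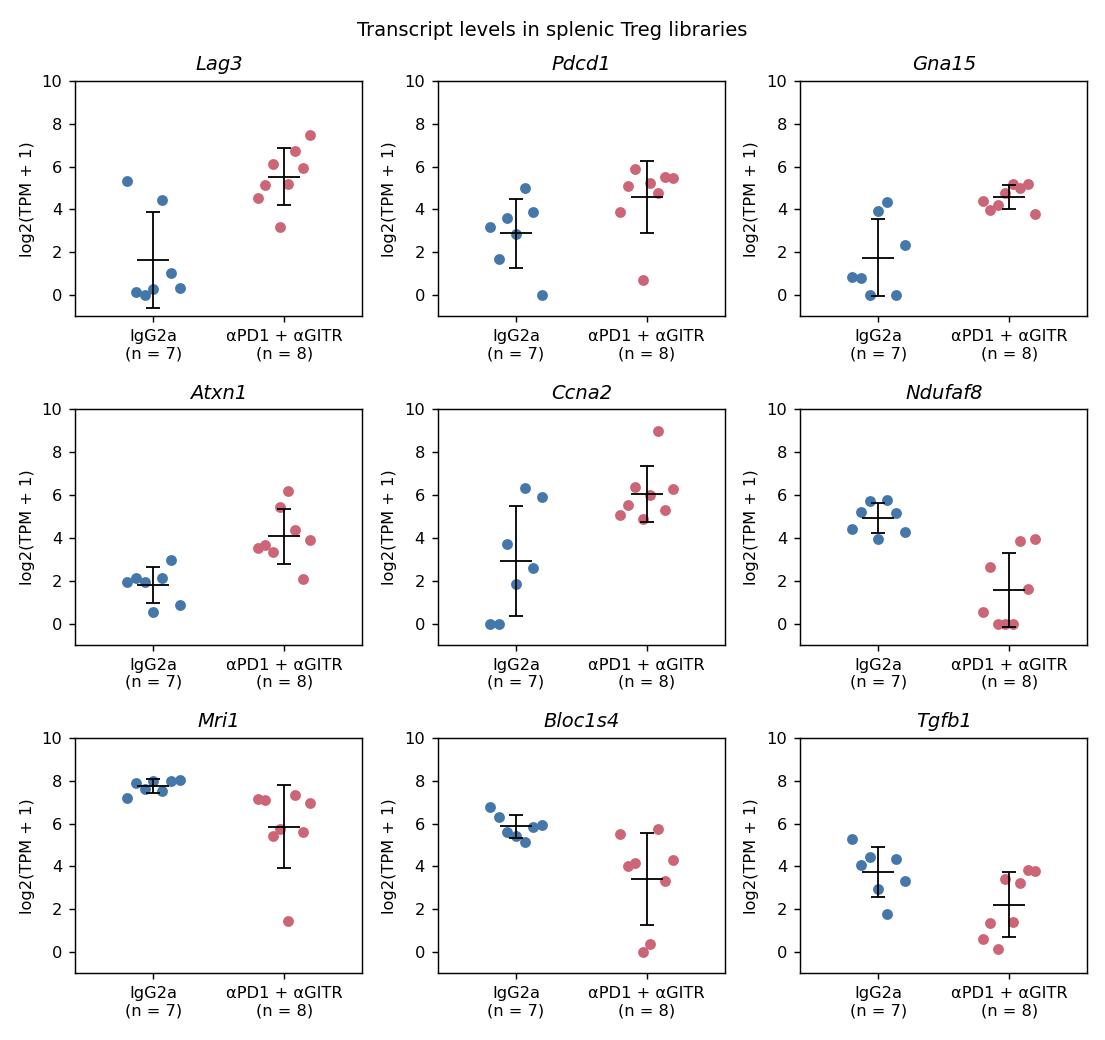
Log2(TPM + 1) of 9 genes in each splenic library, IgG2a (n = 7) in blue and αPD1 + αGITR (n = 8) in red, with the mean and SD in black. Of the genes drawn, the groups are fully apart for *Ndufaf8* alone, and 5 IgG2a libraries lie below every treated library for *Lag3*.

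Genes of Treg identity did not pass the DEG rule in either direction, none of the 20 listed and tested. As 2.53% of all genes tested were DEGs, a list of this size holds few or none at that share, and the count says nothing particular about it. *Foxp3* had medians of 168 TPM after IgG2a and 150 TPM after αPD1 + αGITR, and its log2 fold change of -0.10 (95% interval -1.44 to 1.24) turned positive without IgG2a replicate 79_b or 76_a or treated replicate 72_b or 72_c. The log2 fold change was 0.34 for *Ikzf2*, which encodes Helios (-1.12 to 1.79), 0.19 for *Il2ra*, which encodes CD25 (-1.21 to 1.59), and 0.34 for *Ctla4* (-1.23 to 1.90). These intervals are wide enough to hold a 2-fold change in either direction. *Izumo1r*, which encodes the folate receptor FR4, had medians of 236 and 187 TPM and a log2 fold change of -0.02 (-1.41 to 1.37), and *Nt5e*, which encodes CD73, had medians of 11.04 and 21.6 TPM and a log2 fold change of 1.26 (-0.36 to 2.89).

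Of 18 suppressive mediators 10 were tested, 6 had positive log2 fold changes (median 0.35), and the only DEG was *Lag3*. Over all genes tested 58.1% were positive, the median was 0.15 and 1.49% were higher DEGs. The median of the list ran from -0.074 (without IgG2a replicate 79_a) to 0.74 (without 79_b) with 1 library left out and was -0.11 with a CV below 1, so its direction depended on the libraries and filter used. *Tgfb1*, the transforming growth factor beta 1 gene, had the lowest value of the list. It was at 2.44 to 37.6 TPM after IgG2a (median 15.7) and 0.10 to 13.1 TPM after treatment (median 4.93). The upper 4 of 7 IgG2a libraries were above every treated library, and the lower 4 of 8 treated libraries were below every IgG2a library. The log2 fold change was -1.52 (95% interval -3.11 to 0.06, limma adjusted p = 1.00, exact permutation p = 0.0499), and it stayed negative in each of the 30 alternatives that tested it. With means of 15.95 TPM after IgG2a and 5.96 TPM after treatment, *Tgfb1* was tested only through its IgG2a level, so these values are descriptions. *Il10*, which encodes an inhibitory cytokine, was listed at 0 in all 7 IgG2a libraries and in 3 of 8 treated libraries. Treated replicate 74_a had the highest *Il10* value, 11.6 TPM, and the other 4 were at 0.56 to 3.00 TPM, so the gene was below the level for testing.

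Th1 genes were asked about because the study followed conversion of Treg cells toward an effector state. None of the 11 tested of 25 listed was a DEG, beside 1.49% of all genes called higher and 1.04% lower, while 9 had a positive log2 fold change, with a median of 0.51. Over all genes tested 58.1% were positive with a median of 0.15, and without IgG2a replicate 79_a the median of the Th1 list was 0.14. The positive median was not particular to Th1 genes. Of 17 Th2, Th17 and Tfh genes 6 were tested and 5 were positive, with a median of 0.94. *Tbx21*, the gene of the Th1 factor T-bet, ranged from 0 to 31.9 TPM after IgG2a and from 0 to 51.1 TPM after αPD1 + αGITR. Its log2 fold change of 0.51 (95% interval -1.55 to 2.57) became -0.27 without treated replicates 73_a and 72_c, described below for their erythroid transcripts. *Stat4*, which signals from the interleukin-12 receptor, had a value of 0.46 on this scale (-0.95 to 1.87), and *Il12rb1*, a chain of that receptor, had 0.66 (-0.99 to 2.32). *Cxcr3*, a Th1 chemokine receptor, had 0.21 (-1.35 to 1.78). *Ifng*, the interferon gamma gene, was listed at 0 in all IgG2a libraries and at 0.26 to 2.51 TPM in 5 of 8 treated libraries, too low for testing. Of 34 interferon-stimulated genes 20 were tested and none was a DEG, beside the same shares, with a median log2 fold change of 0.53 that ranged from 0.05 to 0.90 over the alternatives.

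**Figure D3:**
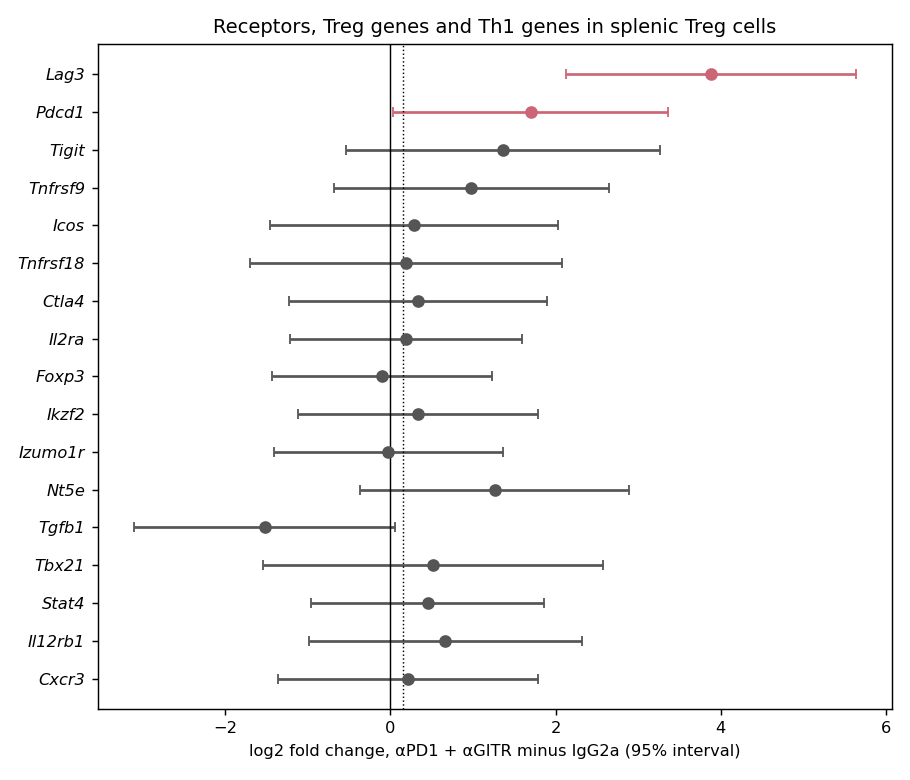
Log2 fold change of receptor, Treg and Th1 genes in splenic Treg cells with 95% limma intervals; genes past the DEG rule are red, the solid line is 0 and the dotted line the median of all genes tested. The intervals of *Lag3* and *Pdcd1* alone lie above 0, *Pdcd1* starting at 0.03.

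Outside these groups, the named rises had the following levels. *Gna15*, a G protein alpha subunit of hematopoietic cells, was at 0 to 19.1 TPM after IgG2a (median 0.79) and at 12.8 to 35.4 TPM after αPD1 + αGITR (median 23.2). Only IgG2a libraries 79_a and 79_b reached the treated range, and the log2 fold change was 2.82 (standard error 0.75, limma adjusted p = 1.00). *Gm16106* and *Gm25595* overlap it, and their reads were not separated from its own. *Atxn1*, a transcriptional regulator, was at 0.45 to 6.82 TPM after IgG2a and 3.21 to 73.2 TPM after treatment, with 7 of 8 treated libraries above every IgG2a library and 74_a inside their range. *Gmpr* and 2 further genes overlap it on the other strand. Its log2 fold change was 2.28 (standard error 0.72). With IgG2a means of 5.56 TPM for *Gna15* and 2.96 TPM for *Atxn1*, both were tested only through their treated level.

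*Jun*, a subunit of the AP-1 transcription factor, was at 0 to 45.1 TPM after IgG2a (median 0.96) and 0.12 to 136 TPM after treatment (median 29.95), and the log2 fold change was 2.84 (0.96 standard error). The lowest 5 IgG2a libraries were at 1.15 TPM or less, and 7 of 8 treated libraries were at 8.02 TPM or more. The antisense gene *Junos* overlaps it. *Jun*, tested only through its treated level (means of 8.81 and 46.2 TPM), was the only DEG of the 12 immediate early genes tested, against 1.49% of all genes called higher, and their median log2 fold change was 0.13 (-0.38 to 0.49 over the alternatives). *Itgb1*, the integrin beta 1 chain, had medians of 10.5 and 26.5 TPM and a log2 fold change of 1.98 (standard error 0.77), and it was the only DEG of 16 integrin and adhesion genes, beside the same 1.49% of all genes. The remaining named rises were *Uap1l1*, *Actl10*, *Atp9b*, *Ccdc50*, *Emc3* (a subunit of the membrane protein insertion complex of the endoplasmic reticulum) and *Plekhf2*, with log2 fold changes between 2.23 and 2.78. *Actl10*, which lies within *Necab3* on the opposite strand, was at 0 in 5 of 7 IgG2a and in 2 of 8 treated libraries. *Actl10*, *Ccdc50*, *Emc3* and *Plekhf2* averaged 8.85 TPM or less after IgG2a, so they were tested only through their treated level.

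Cell cycle genes were represented by *Ccna2*, which encodes cyclin A2 of S and G2 phase, and *Aurkb*, a mitotic kinase. *Ccna2* was at 0 to 78.97 TPM after IgG2a (median 5.06) and at 28.6 to 511 TPM after αPD1 + αGITR (median 54.0). The lowest 5 IgG2a libraries were below every treated library, and 79_b and 79_d, at 78.97 and 59.4 TPM, were within the treated range. The log2 difference came to 3.14 (standard error 0.89, limma adjusted p = 1.00, exact permutation p = 0.00979). *Exosc9* overlaps *Ccna2* on the other strand and had a log2 fold change of 0.27. *Aurkb* had medians of 1.18 and 13.4 TPM and a log2 fold change of 1.98 (standard error 0.84). With an IgG2a mean of 8.83 TPM, *Aurkb* was tested only through its treated level. Of 40 cell cycle genes 31 were tested, these 2 were the only DEGs, against 1.49% of all genes in that direction. The median log2 fold change of the list was 0.42, from -0.18 to 0.92 over the alternatives, beside 0.15 over all genes. *Mki67*, *Top2a* and *Cdk1*, widely used proliferation genes, had log2 fold changes of 1.28, 1.55 and 0.78 and were not DEGs. The replication-dependent histone genes *Hist1h2ak* (2.66), *Hist1h2ab* (2.18) and *Hist1h1b* (1.80) were DEGs among 23 histone genes tested, whose median was 0.09 (-0.17 to 0.70 over the alternatives), again beside 1.49% of all genes called higher. *Hist1h2ak* and *Hist1h1b* averaged 9.00 and 4.88 TPM after IgG2a, so they were tested only through their treated level. The histone list was assembled after values had been seen.

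Transcripts of another lineage were also high in some of the treated libraries. Erythroid markers outside the globins (*Alas2*, *Slc4a1*, *Klf1*, *Car1* and *Car2*) summed to 3.64 to 97.4 TPM in the IgG2a libraries (median 16.5). In the treated libraries they summed to 0 to 1507 TPM (median 89.5), led by 73_a at 1507 TPM and 72_c at 296 TPM, with 80_a and 74_a next at 156 and 141 TPM and 70_c at 0. Library 73_a also held the highest *Ccna2* value, 511 TPM, and the highest *Hist1h2ab* value, 435 TPM. Of the whole marker list of 10 genes, 8 were tested and 1 was a DEG (*Slc4a1*), where 1.49% of all genes tested were called higher. The whole list summed to 12.5 to 7017 TPM after IgG2a and 25.4 to 29393 TPM after treatment, most of it from 4 globin genes, whose sum was highest in 74_a at 28321 TPM. *Car1* was at 0 in all libraries but 73_a. Macrophage and monocyte markers, 16 genes, summed to 34.1 to 93.6 TPM after IgG2a and to 26.7 to 320 TPM after treatment, where 73_a, 72_c, 80_a and 70_c held 213 TPM or more. The 15 B cell markers were highest in IgG2a replicate 79_b, at 1408 TPM, against 60.2 to 525 TPM elsewhere. The 13 dendritic cell markers summed to 28.6 to 907 TPM after IgG2a and to 30.1 to 472 TPM after treatment. For the 6 platelet markers the sums were 0.31 to 24.6 and 3.50 to 92.4 TPM, and for the 6 plasma cell markers 8.22 to 93.9 and 13.97 to 204 TPM. In bulk libraries fewer or more cells of a type cannot be told apart from less or more RNA per cell, and the part of these transcripts in the rises was not tested beyond leaving libraries out.

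Among the DEGs, 10 are genes of red cell development by a list of 45, of which 31 were tested, assembled after values had been seen. They are *Slc4a1* (the band 3 anion exchanger), *Epb42* and *Epb41* (membrane skeleton proteins), *Slc25a37* (the mitochondrial iron importer mitoferrin), *Blvrb*, *Trim10*, *Tmcc2*, *Stom*, *Cd24a* and *Abcg2*, all higher after αPD1 + αGITR with log2 fold changes of 1.6 to 2.48, where 1.49% of all genes tested were higher DEGs. All 10 averaged 8.87 TPM or less after IgG2a, so each was tested only through its treated level, and none was tested when both groups had to exceed 10 TPM. Their count is therefore a description and supports nothing. It also moved with single libraries, to 1 without 73_a or without 72_c, 2 without IgG2a replicate 79_d, 4 without 76_a, 5 without 79_a, 79_c or 80_a, 6 without 74_a, 72_b, spleen_369_a or 77_a, and 15 without 70_c. *Slc4a1* was at most 9.12 TPM after IgG2a and was at 619 TPM in 73_a and 121 TPM in 72_c, with the other treated libraries at 10.9 TPM or less. *Abcg2* had a different spread, at 0.43 to 6.19 TPM after IgG2a and 4.62 to 32.6 TPM after treatment, with 7 of 8 treated libraries above every IgG2a library. Without 73_a and 72_c, a setting chosen after the data had been seen, none of the 10 passed the rule (in part because they no longer averaged over 10 TPM), the DEGs numbered 73 higher and 80 lower, and 89 of the original 168 remained. Without those libraries the log2 fold change of *Lag3* was 3.75, of *Pdcd1* 1.56, of *Ccna2* 2.66, of *Aurkb* 1.63 and of *Jun* 2.82. That of *Ndufaf8* was -3.48.

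**Figure D4:**
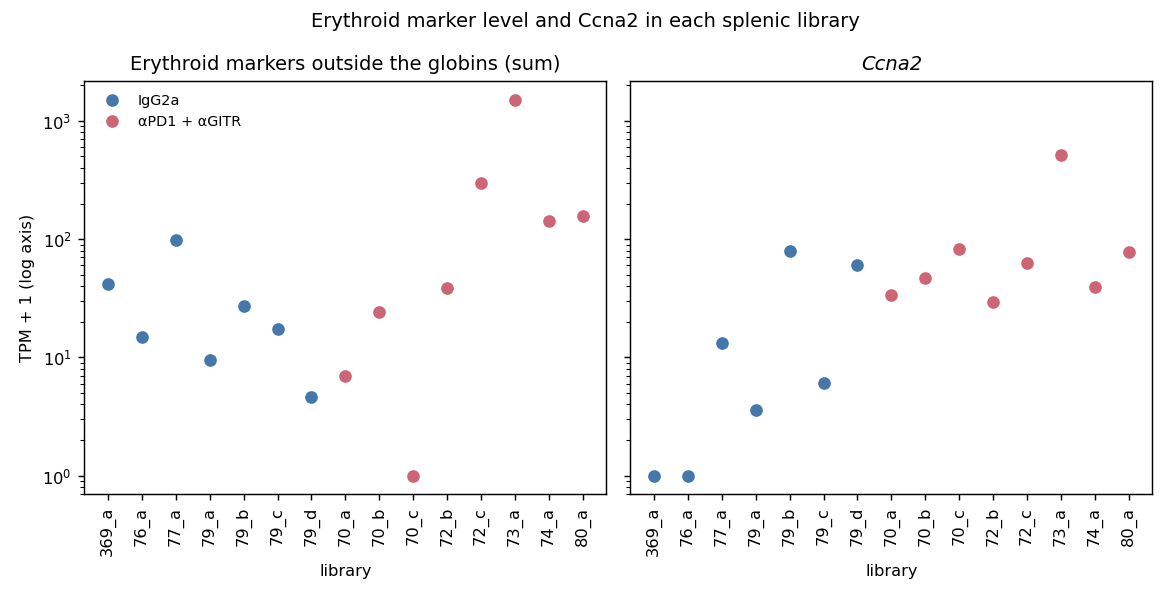
Summed level of the erythroid markers outside the globins and level of *Ccna2* in each splenic library, as TPM + 1 on a log axis, IgG2a in blue and αPD1 + αGITR in red. Libraries 73_a and 72_c have the highest marker sums, 1507 and 296 TPM, and 73_a also has the highest *Ccna2* value.

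The lower genes were led by *Ndufaf8*, which encodes an assembly factor of mitochondrial complex I and lies on chromosome 11 from 120098928 to 120100705. It was at 14.6 to 53.4 TPM after IgG2a (median 35.2) and at 0 to 14.3 TPM after αPD1 + αGITR (median 1.24), with 3 treated libraries at 0. Every treated library lay below every IgG2a library, the only gene tested with that separation in either direction (1 of 6634, 0.0151%), although 80_a (14.3 TPM) and 73_a (13.5 TPM) came close to IgG2a replicate 79_a (14.6 TPM). The log2 fold change was -3.36 (standard error 0.76), with a limma adjusted p of 0.449 and an exact permutation p of 0.000932, and the limma adjusted p ran from 0.0443 (quantile normalization) to 1.00 over the alternatives. *Ndufaf8* averaged 32.8 TPM after IgG2a and 4.44 TPM after treatment, so it was tested only through its IgG2a level, and it is named for its small p and its separation, which makes these p-values descriptions. The 71 nuclear genes of oxidative phosphorylation tested held no DEG, beside 2.53% of all genes, and had a median log2 fold change of -0.03, and the 13 genes of the mitochondrial genome had a median of -0.15 with no DEG.

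*Mri1*, an enzyme of the methionine salvage pathway, was at 143 to 261 TPM after IgG2a, against 1.71 to 158 TPM after treatment. All treated libraries but 73_a were below every IgG2a library, 72_c stood far down at 1.71 TPM, and the log2 fold change was -1.91 (standard error 0.72). *Bloc1s4*, a subunit of the complex that forms lysosome-related organelles, was at 33.9 to 109 TPM and at 0 to 52.6 TPM, and its log2 fold change was -2.43 (0.79 standard error). The gene *Gm43701* overlaps it. *Zpr1*, which encodes a zinc finger protein, was at 4.26 to 165 TPM and at 0 to 44.7 TPM, and its change was -2.77 (0.86 standard error). *Meis3*, a homeobox gene, had medians of 11.9 and 2.02 TPM, and *Slc27a1*, a fatty acid transporter, had medians of 14.5 and 1.36 TPM. *Dhodh*, which catalyzes a step of pyrimidine synthesis, had medians of 14.8 and 1.04 TPM, and *Mlxip*, a glucose-responsive transcription factor, had medians of 39.1 and 6.50 TPM. *Ube3a*, an E3 ubiquitin ligase whose locus holds the antisense transcript *Snhg14*, had medians of 115 and 29.0 TPM. *Mir6236* had the largest fall, -3.86, and was at 0 in 7 of 8 treated and 2 of 7 IgG2a libraries. *Rasip1* and *Btbd19* changed by -2.43 and -2.35. *Meis3*, *Slc27a1*, *Rasip1* and *Dhodh* averaged 7.93 TPM or less after treatment, so they were tested only through their IgG2a level. *Pdk1*, an inhibitor of pyruvate dehydrogenase, was the only DEG of 18 glycolysis genes tested (-1.81, exact permutation p = 0.0909), where 1.04% of all genes were lower DEGs.

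Values of 0 were uneven across libraries. Of the 6634 genes tested, 4.40% to 12.7% were at 0 in an IgG2a library and 5.56% to 14.1% in a treated one. Of the 69 lower DEGs, 30 were at 0 in treated replicate 72_c, 24 in 70_c and 20 each in 72_b and 80_a, against 1 to 8 in the IgG2a libraries. Of the 99 higher DEGs, 46 were at 0 in IgG2a replicate 79_c, with 11 to 29 in the other IgG2a libraries and 3 to 15 in the treated libraries. The highest value of a higher DEG fell in 73_a for 24 genes, 72_c for 23 and 70_c for 20. Since the DEGs were chosen on these same libraries, the counts describe where their values came from.

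The promoters of *Ndufaf8*, *Pdcd1* and *Jun* are shown because these genes give the clearest fall, the target of αPD1 and an AP-1 subunit among the rises. Each is the 250 bases before the RefSeq start site in GRCm38.p6, on the strand of the gene, with CCAAT or its reverse complement in capitals.
Ndufaf8, chr11:120098684-120098933, plus strand: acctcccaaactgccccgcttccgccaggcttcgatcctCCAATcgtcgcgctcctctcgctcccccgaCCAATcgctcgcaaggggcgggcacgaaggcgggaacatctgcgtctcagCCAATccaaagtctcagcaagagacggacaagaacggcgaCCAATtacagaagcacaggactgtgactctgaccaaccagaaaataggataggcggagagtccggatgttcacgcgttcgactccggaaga
Pdcd1, chr1:94052554-94052803, minus strand: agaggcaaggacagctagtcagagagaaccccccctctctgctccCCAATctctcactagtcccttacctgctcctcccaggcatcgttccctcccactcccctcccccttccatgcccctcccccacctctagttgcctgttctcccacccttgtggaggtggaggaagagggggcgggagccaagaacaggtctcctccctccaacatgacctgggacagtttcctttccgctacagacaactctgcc
Jun, chr4:95052223-95052472, minus strand: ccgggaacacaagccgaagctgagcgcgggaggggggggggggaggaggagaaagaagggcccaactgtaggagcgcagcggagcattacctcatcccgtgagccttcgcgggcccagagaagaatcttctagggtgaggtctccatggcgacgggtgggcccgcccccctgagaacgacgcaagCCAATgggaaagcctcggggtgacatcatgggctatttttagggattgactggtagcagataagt
The *Ndufaf8* window holds 4 CCAAT matches and the others 1 each, and 34.2% of the 27025 promoters in the table hold at least 1. A further 4 motifs were searched on both strands, TGANTCA (AP-1), TGGAAA (NFAT), GGANTTTCC (NF-kB) and TGTGGT (Runx), none of which has its letters in these 3 windows. Promoters were matched for 60 of the 99 higher and 52 of the 69 lower DEGs. TGANTCA was in 3.33% of the higher and 0% of the lower DEGs, against 3.68% of the 4517 tested genes with a promoter and 6.87% of all promoters. TGGAAA was in 11.7% and 9.62%, against 15.1% and 18.7%. TGTGGT was in 15% and 9.62%, against 11.3% and 14.2%. GGANTTTCC was in none of either set, against 1.02% and 1.08%. CCAAT, added after the sequences had been read, was in 43.3% and 25%, against 36.8% of tested genes. A match is a description of letters in this window only.

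In most other gene groups no member met the DEG rule, which 2.53% of all genes tested met, so lists of these sizes would hold few at that share. Of 30 genes of the T cell receptor complex and its proximal signaling, all tested, none was a DEG and the median log2 fold change was 0.11. The 24 TRAF and NF-kB genes tested, through which GITR signals, had a median of 0.18, and the 10 TNF receptor family genes a median of 0.13. The 16 genes of the IL-2 and STAT5 pathway had a median of -0.13, the 14 genes of resting and lymphoid-homing cells -0.27, the 8 *Gimap* GTPase genes 0.30, the 18 genes of MHC class I presentation 0.23 and the 31 proteasome core genes 0.25. The 75 cytosolic ribosomal protein genes had a median of -0.15, which ran from -0.79 to 0.21 over the alternatives, and each of the list medians named here took both signs over them. Beside them stand the 0.15 of all genes tested and a median standard error of 0.80 for a single gene. Without IgG2a replicate 79_a the medians of the T cell receptor, TNF receptor, *Gimap* and Treg identity lists became -0.23, -0.10, -0.03 and -0.08, while the median of all genes tested became -0.09.

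Whether these differences were particular to the spleen was tested by the interaction of tissue and treatment, with 5 IgG2a and 7 αPD1 + αGITR libraries of GBM Treg cells from the same series. The fit treated all libraries as separate, although 9 labels occur in both tissues. Of 8687 genes 0 (0%) were called by limma after adjustment. An unadjusted limma p under 0.05 was found for 1056, a larger share than the 5% that such a p allows. In the splenic contrast that share was 2.53%. *Lag3* was at 224 ± 198 TPM (SD, n = 5) after IgG2a and 224 ± 131 TPM (SD, n = 7) after treatment in GBM, and the splenic effect minus the GBM effect was 3.17 on the log2 scale (standard error 1.35, limma adjusted p = 0.345). In spleen it was at 8.81 ± 15.4 TPM (SD, n = 7) and 64.1 ± 55.4 TPM (SD, n = 8). For *Pdcd1* the difference of effects was 1.82 (standard error 1.03, limma adjusted p = 0.492). *Ndufaf8* was at 32.9 ± 43.2 and 26.98 ± 10.9 TPM in GBM, and its difference of effects was -4.22 (standard error 1.13, limma adjusted p = 0.314). *Mlxip* had an interaction of -5.21 (standard error 1.13, limma adjusted p = 0.136), with 35.1 and 11.96 TPM in spleen and 13.8 and 62.5 TPM in GBM after IgG2a and αPD1 + αGITR. *Lag3*, *Ndufaf8* and *Mlxip* were among the genes of smallest splenic p, and the interaction reuses those splenic values. Their differences of effects are therefore descriptions and cannot show a response particular to spleen.

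The number and direction of the DEGs depended on the setting. Between 130 and 214 genes met the rule when any 1 library was left out. Of the DEGs 58.9% were higher, and this share ran from 41.2% without IgG2a replicate 79_d to 74.3% without 79_b. Leaving out the 4 libraries with over 30% of their TPM in lincRNA features, an alternative chosen after the data had been seen, gave 79 higher and 147 lower genes, 95 of them among the original 168. Of the 168 DEGs 5, *Atp9b*, *Bloc1s4*, *Btbd19*, *Mri1* and *Ncoa4* (the last named after its values were seen), met the rule in each of the 31 alternatives.

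**Figure D5:**
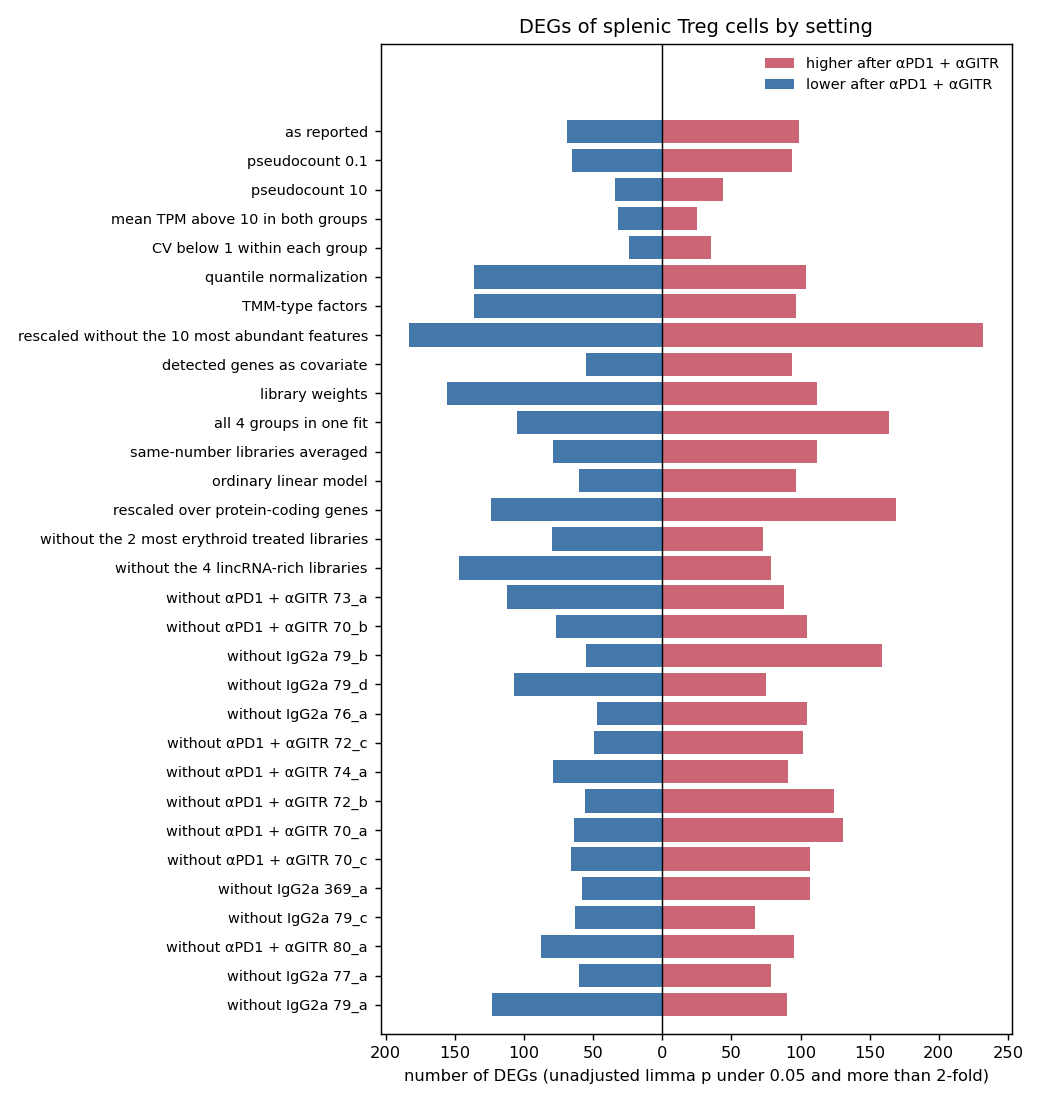
Number of DEGs higher (red, to the right) and lower (blue, to the left) after αPD1 + αGITR in splenic Treg cells under each setting except that without a filter on low values, which gave 401 and 190. As reported there were 99 and 69, and the balance of the sides shifts with the scaling and with single libraries such as 79_b.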

How the data were processed

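RNA of sorted splenic and GBM Treg cells was prepared by the Smart-Seq2 protocol with a Nextera XT kit, which does not mark strand. TopHat alignment to mm10 and RSEM quantification as TPM were done by the authors, and the submitters' processing notes name bcl2fastq and TopHat2 without versions. The deposited table is in another unit, TPM plus 1, for 53801 features listed by symbol. Read depth is unknown, so no counting error is given and precision rests on the spread between libraries. Groups follow the sample labels. Of 9 treated spleens described 8 have a named column, and 1 unnamed column of values was not used.

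One was subtracted from each value. Log2(TPM + 1) of 8 treated and 7 IgG2a splenic libraries was fitted with limma 3.58.1 in R 4.3.3 (lmFit, eBayes with an intensity trend), two-sided, with Benjamini-Hochberg adjustment over all genes tested. Fold changes on this scale understate changes of low genes. For single genes the difference in means was set against all 6435 assignments of libraries to groups (exact permutation test, two-sided), whose smallest possible p is 0.000155, and intervals are 95% limma intervals. The interaction was fitted over 27 libraries and the genes averaging over 10 TPM in at least 1 of 4 groups. Named genes were receptors, Treg genes and Th1 genes of the study, the 12 rises and 12 falls of smallest p among DEGs (predicted, clone-named and pseudogene features left out), DEGs in the gene lists, and genes whose groups do not overlap. Of the study's genes, *Tnf* and *Fasl* were below the level for testing, and some are not reported here. The members and lists were chosen with earlier results of these data known. Positions and overlaps come from GENCODE M21, in which 52038 features matched by symbol, and promoters from RefSeq (GRCm38.p6, the assembly of mm10). Alternatives were a pseudocount of 0.1 or 10, other filters (none, above 10 TPM in both groups, CV below 1), quantile normalization, TMM-type factors (30% and 5% trimmed), rescaling without the 10 most abundant features, the number of detected genes as covariate, library weights, all 4 groups in one fit, same-number libraries averaged, an ordinary linear model and leaving out each of 15 libraries. Rescaling over protein-coding genes, leaving out the 2 treated libraries highest in erythroid markers outside the globins (73_a and 72_c), and leaving out the 4 with over 30% of TPM in lincRNA were chosen after seeing the data, as was the fit of the interaction with shared labels as a block. The fit was also run on the splenic libraries shuffled between groups, with chosen genes raised by known folds, and its outcome is not reported here.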

Additional observations from a re-analysis of the deposited data

Results flagged for a closer look

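Of 126 sets of 7 or 8 libraries examined, 11 had a highest or lowest value far from the others by Dixon's test on the log2(TPM + 1) or percent scale, and chance gives about 1 in 20. Among treated libraries, *Pdcd1* was lowest in 72_b at 0.62 TPM with 13.7 TPM next. *Stat4* was lowest in 72_c at 3.46 TPM with 12.6 TPM next, and *Mri1* was lowest in the same library at 1.71 TPM with 42.0 TPM next. *Cxcr3*, a Th1 chemokine receptor, was lowest in 70_c at 0.65 TPM with 10.1 TPM next. *Ccna2* was highest in 73_a at 511 TPM with 81.0 TPM next, and *Mir6236* was at 162 TPM in 72_c and at 0 in the other treated libraries.

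Among IgG2a libraries, *Actl10* was highest in 79_d at 2.27 TPM, *Trim10* in spleen_369_a at 3.79 TPM, and *Tmcc2* and *Stom* in 77_a at 22.6 and 17.7 TPM. IgG2a replicate 79_b had 62.4% of its TPM in protein-coding genes, with 40.9% next, and it also had the highest housekeeping sum of the 15 libraries, 26790 TPM.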

How the results depend on the processing

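No paired analysis was possible because the IgG2a and αPD1 + αGITR spleens share no label number. Between spleen and GBM 9 labels are shared, and the deviations of such pairs from their group means correlated at -0.15 to 0.16 (median -0.05, 1 pair over 0.1), so the labels were not taken to pair libraries. With the label as replicate block, a fit added after seeing the data, the interaction still had 0 genes past an adjusted p of 0.05 in limma and 968 with an unadjusted p under 0.05. The 168 DEGs became 78 with a pseudocount of 10, 57 when both groups had to exceed 10 TPM, 59 with a CV below 1, 591 without a filter, 415 rescaled without the most abundant features, 293 rescaled over protein-coding genes, 268 with library weights and 269 with all 4 groups in one fit, and 130 to 214 with 1 library left out. The share of higher DEGs was 43.3% with quantile normalization and 41.6% with TMM-type factors, which moved the median of all genes from 0.15 to 0.02 and -0.01. The median was between -0.09 and 0.36 with 1 library left out.

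Genes past an adjusted p of 0.05 in limma numbered 1 with quantile normalization (*Ndufaf8*) and 0 in the other 30 alternatives, in which 1 library left out gave 0 throughout. The interaction also stayed at 0 in the 8 other alternatives. Genes whose groups do not overlap numbered 3 without a filter, 0 when both groups had to exceed 10 TPM or with a CV below 1 (neither of which tests *Ndufaf8*), 2 with quantile normalization, TMM-type factors or rescaling without the most abundant features, 3 without 73_a and 72_c, 23 (0.327% of genes tested) without the 4 lincRNA-rich libraries, 55 (0.829%) with same-number libraries averaged, and 1 to 3 with 1 library left out. Smaller groups separate more often by construction. The median of the Th2, Th17 and Tfh genes fell from 0.94 to 0.11 without a filter.

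Several small log2 fold changes reversed, and no adjusted call was involved. *Tnfrsf18* was -0.18 with a pseudocount of 0.1, -0.018 with quantile normalization, -0.075 with TMM-type factors, -0.10 without the most abundant features and -0.00362 over protein-coding genes (-0.27 to 0.89 with 1 library left out). *Il2ra* was -0.00518 with TMM-type factors, -0.00771 with library weights, -0.11 with same-number libraries averaged and -0.22 without the lincRNA-rich libraries (-0.19 to 0.52). *Cxcr3* was -0.030 with detected genes as covariate, -0.018 with library weights, -0.091 with same-number libraries averaged, -0.092 without 73_a and 72_c and -0.25 without the lincRNA-rich ones (-0.13 to 0.68). *Foxp3* was 0.20 with the covariate and 0.059 without 73_a and 72_c (-0.32 to 0.26), and *Izumo1r* was 0.20 and 0.048 (-0.33 to 0.26). *Ctla4* was -0.034 with library weights (-0.048 to 0.84), and *Icos* ran from -0.076 to 0.78 with 1 library left out. *Tbx21* was -0.21 with same-number libraries averaged, -0.27 without 73_a and 72_c and -0.49 without the lincRNA-rich ones (0.08 to 0.96). The cause of these shifts was not tested.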
